A study of Mus musculus with 8 samples.

Results

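The mitosis and spindle genes described here are 40 named genes: cyclins and kinases that drive cells into mitosis, kinesins and microtubule binding proteins of the spindle, kinetochore and centromere proteins, and the factors that separate sister chromatids and divide the cell. They were listed by gene symbol, and the list was chosen with earlier results of these data known. Of the 40, 35 had a probe under that symbol, among 16593 named genes on the array, and 28 were measured well enough to be tested, among 10184 tested genes. Expression had been measured with an Illumina beadchip in whole colons of 8 C57BL/6 mice. The 4 wildtype mice were Villin-CreERT2-Ihh+/+ and the 4 knockout mice Villin-CreERT2-Ihhfl/fl. All 8 mice, controls included, carried a tamoxifen-dependent Cre recombinase under the Villin promoter, which is active in the intestinal epithelium, and all 8 received 1 mg tamoxifen on 5 consecutive days, with colons taken at day 7. Recombination is thus limited to cells in which the Villin promoter has been active, and the whole colon mixes epithelium with stroma, muscle and immune cells. The labels number the colons 1 to 4 in each genotype, and these were taken as separate mice. The labels record no age. The comparison asks how removal of this epithelial signal changes the colon.

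Mitosis is switched on by Cdk1 bound to B type cyclins, and Aurora and Polo kinases then build the spindle. Kinetochores tie chromosomes to spindle microtubules, and a checkpoint holds back the anaphase-promoting complex until every chromosome is attached. Most of these genes are transcribed only in dividing cells, through promoters read by the DREAM and MuvB complexes and by FOXM1 and B-MYB. In the colon, dividing cells lie mainly in the lower part of the crypts. Ihh is made by the differentiated epithelium and is received by the mesenchyme underneath.

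The promoters of the listed genes are shown first, since a shared pair of short elements was not used in choosing them. Both elements are well known in genes that peak in mitosis. The cell cycle homology region (CHR, searched as TTTGAA) is bound by the MuvB core, and the CCAAT box is bound by NF-Y. Both strands were searched in windows from 250 bases before to 50 bases after each annotated start, taken from RefSeq (GRCm38.p6). In Cdca8 a CHR and a CCAAT match share a base, and in no other listed gene do they overlap. A gene with several windows was counted as holding a motif if any window did. Of the 40 genes, 36 had a window, and in 32 of these a window held the outermost annotated 5′ end of the gene. A CHR match was found in 26 of the 36 (72.2%) against 20.2% of all 27025 genes with a window. A CCAAT match was found in 28 (77.8%) against 41.1%. Both occurred together in 23 (63.9%) against 8.97%. Within 50 bases of the start, a distance chosen after the positions had been seen, 24 of the 36 genes (66.7%) had a CHR match against 5.72% of all genes. Among 109 other mitosis genes, 80 had a window, and 37 of the 80 (46.3%) held a CHR match. The CHR share was 17.1% in 35 genes of DNA replication and S phase entry and 14.3% in 14 subunits of the anaphase-promoting complex.

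**Figure D1:**
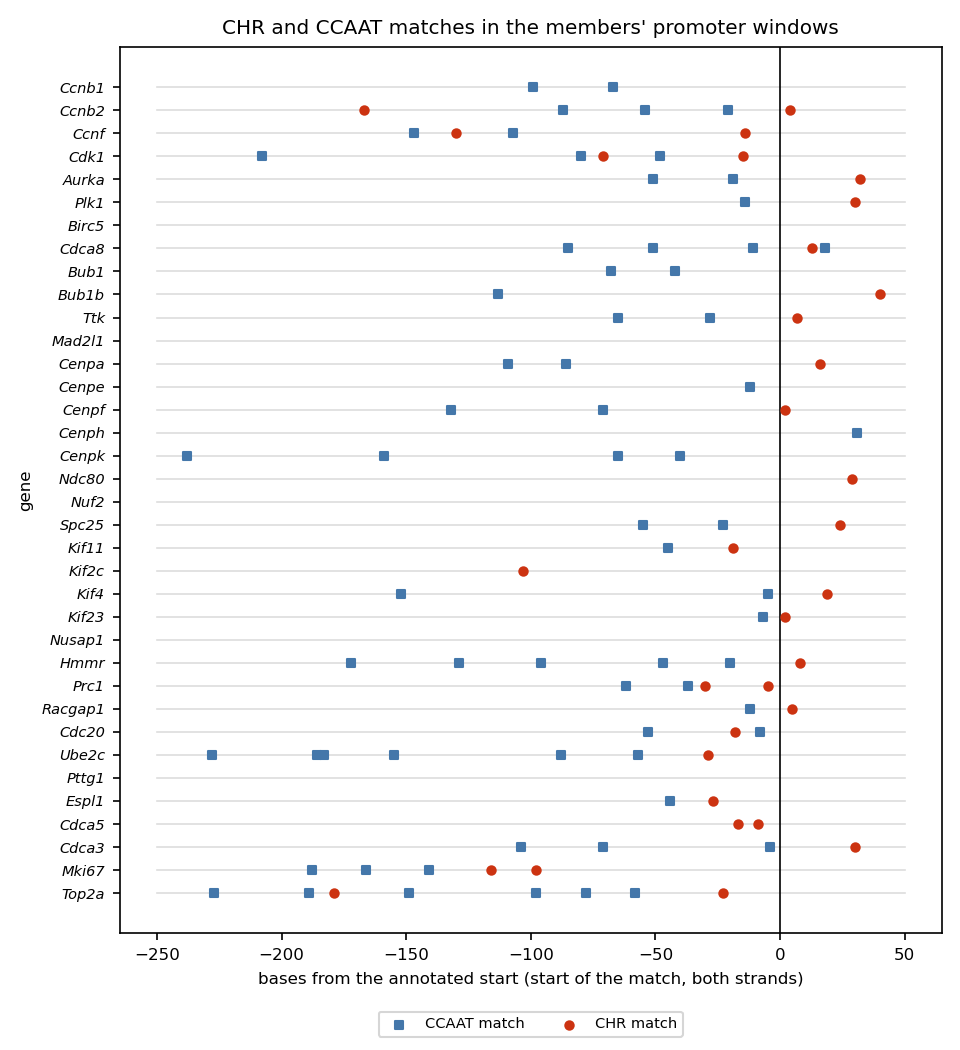
Positions of CHR (red circles) and CCAAT (blue squares) matches, in bases from the annotated start, for the 36 listed genes with a promoter window, with all windows of a gene drawn on 1 line. The CHR matches of 24 genes lie within 50 bases of the start, and most CCAAT matches lie before the CHR match.

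The windows of 4 genes with a higher mean in the knockout are printed to show the arrangement. Plk1, Aurka, Cdk1 and Spc25 are shown as examples whose differences are among the larger ones and which hold both elements. Ube2c (0.96) and Ttk (0.79) also hold both, with the CHR match as its reverse complement TTCAAA, and are not printed. Not all genes with larger differences hold both: Cenph (0.88) has no CHR match and Cdca5 (0.80) no CCAAT match. Capitals mark CHR and CCAAT matches on either strand, and each window is written 5′ to 3′ along the gene's own strand. The Plk1 window lies at chr7:122159185-122159484 on the plus strand. The others lie on the minus strand, that of Aurka at chr2:172370521-172370820, that of Cdk1 at chr10:69352863-69353162 and that of Spc25 at chr2:69206164-69206463. The windows of Plk1, Cdk1 and Spc25 hold the outermost annotated 5′ end of the gene, and that of Aurka is set on a start further inside.
Plk1: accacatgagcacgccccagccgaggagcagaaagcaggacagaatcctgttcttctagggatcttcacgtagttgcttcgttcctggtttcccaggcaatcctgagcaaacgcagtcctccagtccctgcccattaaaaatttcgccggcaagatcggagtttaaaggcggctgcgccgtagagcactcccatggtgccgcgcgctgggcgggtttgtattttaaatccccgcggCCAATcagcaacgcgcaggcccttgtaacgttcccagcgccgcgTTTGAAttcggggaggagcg
Aurka: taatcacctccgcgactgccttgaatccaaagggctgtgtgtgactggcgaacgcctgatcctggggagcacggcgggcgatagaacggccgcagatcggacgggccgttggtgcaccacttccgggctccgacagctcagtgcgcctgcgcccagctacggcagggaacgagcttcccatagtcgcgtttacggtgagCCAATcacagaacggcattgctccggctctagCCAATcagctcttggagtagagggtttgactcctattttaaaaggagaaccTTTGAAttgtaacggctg
Cdk1: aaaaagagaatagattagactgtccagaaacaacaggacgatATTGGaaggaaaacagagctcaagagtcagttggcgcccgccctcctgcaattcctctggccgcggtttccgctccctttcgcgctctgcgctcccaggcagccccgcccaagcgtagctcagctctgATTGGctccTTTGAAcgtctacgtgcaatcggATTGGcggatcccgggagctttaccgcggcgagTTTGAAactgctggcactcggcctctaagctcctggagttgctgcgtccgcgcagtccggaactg
Spc25: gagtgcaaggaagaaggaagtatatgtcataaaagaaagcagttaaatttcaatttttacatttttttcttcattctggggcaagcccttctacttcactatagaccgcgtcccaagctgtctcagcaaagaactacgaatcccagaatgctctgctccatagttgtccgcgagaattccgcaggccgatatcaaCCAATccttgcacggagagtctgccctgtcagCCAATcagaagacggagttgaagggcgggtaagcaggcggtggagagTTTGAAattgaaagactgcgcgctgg
In these windows a CCAAT box, as CCAAT or its reverse complement ATTGG, stands before a CHR match close to the start. A match is a description of sequence and no measurement of binding.

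Array-wide values set the scale for what follows. Mean intensity was 902 to 1258 per array and 14465 to 15040 of 25697 probes were detected (detection p under 0.05). Knockout 4 correlated least with the other arrays (mean r = 0.956). Wildtype arrays lay at beadchip positions A to D and knockout arrays at E to H. Transcripts of Xist and of Y-linked genes showed a male pattern in 1 wildtype and 3 knockout colons. Transcripts of skeletal muscle and of skin differed widely between colons within each genotype. The tissue label was met by the colon epithelium markers, of which all 11 with a probe were tested, while Epcam, Car1 and Muc2 had no probe under their symbol. Ihh itself had log2 intensities of 10.47, 10.50, 10.42 and 10.17 in wildtype and 9.56, 9.03, 9.28 and 9.50 in knockout colons, so the groups did not overlap. Its limma log2 change of -1.05 (SE 0.149) had an adjusted p of 0.130. Where its probe lies relative to the deleted part was not analysed here.

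Across the listed genes the knockout colons had the higher signal on average, but the genotypes overlapped. The mean score of the 28 tested genes was -0.13, -0.65, 0.012 and -0.54 in wildtype 1 to 4. In knockout 1 to 4 it was 0.24, -0.10, 0.40 and 0.77, so knockout 2 lay below wildtype 3. All genes were measured in the same colons, so the gene counts that follow are not independent of each other. Of the 28 tested genes, 27 had a higher mean in the knockout, against 49.1% of all genes tested, and the median log2 change was 0.65, or 1.57-fold, against -0.0047 over all genes. The size differed by gene, from -0.28 for Pttg1 to 1.81 for Plk1, and 18 genes were at least 1.5-fold higher, against 3.09% of all genes. No member passed the limma test at an adjusted p under 0.05, which 2 genes on the array passed (0.0196% of those tested, none of them higher in the knockout). At an unadjusted limma p under 0.05, 21 of the 28 (75%) were higher and 0 lower, against 6.7% and 4.34% of all genes. Adjusted p-values of the members lay between 0.353 and 0.698. In 5 of the 28, every knockout value lay above every wildtype value, against 4.85% of all genes, and in 0 below, against 2.83%. With median scaling in place of quantile normalization that number was 0 of 28 (2.86% of all genes). Without background correction the median was 0.43, and the changes of 13 of the 28 genes were over 1.5 times smaller, among them Cenph (0.43), Cdca5 (0.46), Tpx2 (0.43) and Espl1 (0.31). In bulk tissue, more dividing cells and more RNA per cell cannot be told apart.

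Of the 28 tested genes, 26 were detected on all 8 arrays, Plk1 on 7 and Ttk, a checkpoint kinase, on 6, where 2 wildtype arrays lacked it. Only for Plk1 and Ttk was detection less frequent in wildtype than in knockout colons. For 7 genes with a probe (Ccnb2, Ccnf, Bub1, Cenpe, Nuf2, Kif20a and Hmmr) the signal was not well above background and no difference is given. Ccnf was detected on 1 array of each genotype and the other 6 on 0. For Ccnb1, Aurkb, Cenpf, Mki67 and Racgap1 no probe carried the symbol in the annotation used here, so the usual marker Ki-67 was not analysed here.

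**Figure D2:**
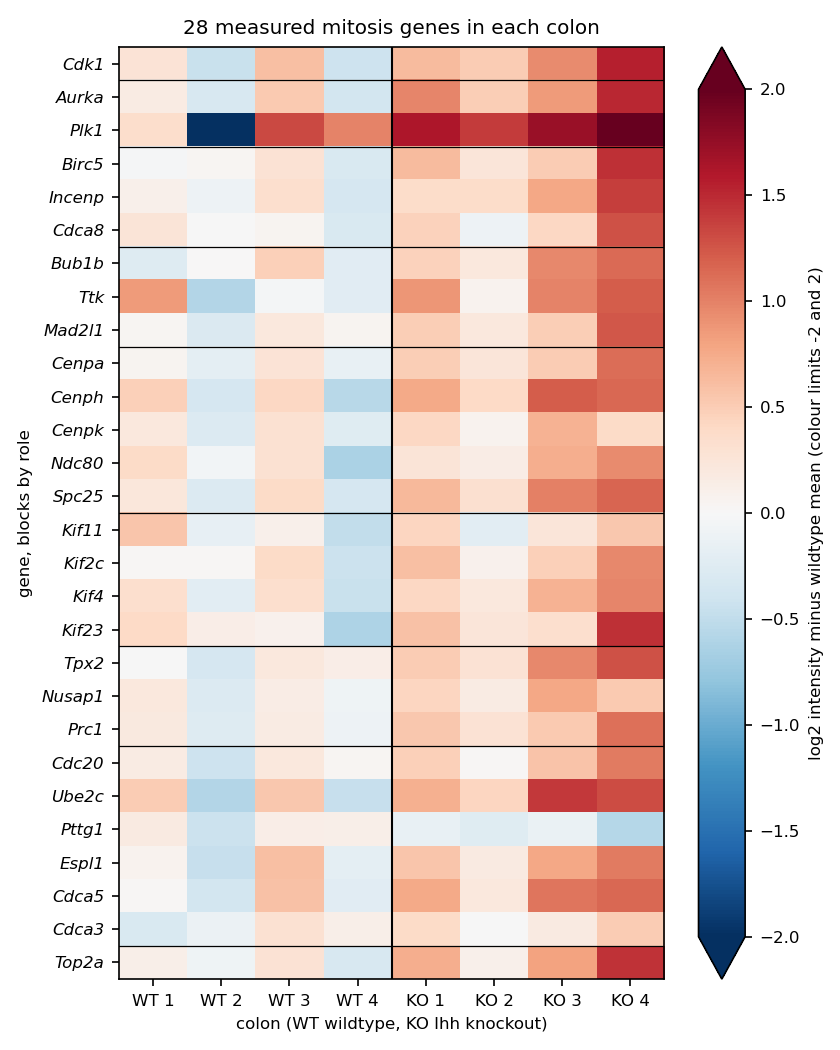
Log2 intensity of each of the 28 tested mitosis genes in each colon, minus that gene's wildtype mean; columns are the 4 wildtype (WT) and 4 knockout (KO) colons and lines separate the role groups. Knockout 4 is the darkest column in most rows, knockout 2 the palest of the knockout columns, and wildtype 2 and wildtype 4 are blue in most rows.

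The colons fell into a common order across these genes. Knockout 4 had the highest value of all 8 colons in 22 of 28 genes and knockout 3 in 4. Among the knockout colons, knockout 2 was the lowest in 26 of 28 genes. Among the wildtype colons, wildtype 3 was the highest in 19 and wildtype 1 in 9, while wildtype 2 was the lowest in 14 and wildtype 4 in 12. The median over genes of the difference from the wildtype mean was 0.19, -0.27, 0.31 and -0.27 in wildtype 1 to 4. In knockout 1 to 4 it was 0.52, 0.21, 0.74 and 1.15. Knockout 1, 3 and 4 exceeded all 4 wildtype colons in 23, 24 and 26 of the 28 genes, and knockout 2 in 5. Shares over all genes are not given for these ranks, and whether the order is particular to the mitosis genes was not tested. Without knockout 2 the number of genes with no overlap was 21 (8.90% of all genes in that setting), and without wildtype 3 it was 14 (8.49%). Without knockout 4, the array least like the others, the median log2 change was 0.46 and 15 genes had an unadjusted p under 0.05 (5.77% of all genes in that setting).

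Cdk1, the kinase that starts mitosis, was the only member tested in its group of cyclins and their kinase. Its log2 intensities were 9.66, 8.94, 9.99 and 8.97 in wildtype colons 1 to 4 and 10.02, 9.90, 10.34 and 10.95 in knockout colons 1 to 4. Wildtype 3 lay above knockout 2, and the other wildtype colons lay below all knockout colons. The difference was 0.91 (SE 0.300), 1.88-fold, with a limma adjusted p of 0.387. The other Cdk1 probes were detected on no array.

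The mitotic kinases Aurka and Plk1 had the smallest p and the largest difference among the members. Aurka, which matures centrosomes and assembles the spindle, had values of 8.53, 8.04, 8.89 and 7.99 in wildtype and 9.33, 8.85, 9.21 and 9.87 in knockout colons. Only wildtype 3 and knockout 2 overlapped, by under 0.1, and the difference of 0.95 (SE 0.261, limma unadjusted p = 0.00528, adjusted p = 0.353) is 1.94-fold. Plk1, a kinase of mitotic entry and centrosomes, had values of 8.32, 5.30, 9.30 and 8.97 in wildtype and 9.59, 9.37, 9.71 and 10.46 in knockout colons. The genotypes did not overlap, but the probe was not detected in wildtype 2. The Plk1 difference of 1.81 (SE 0.776, adjusted p = 0.450) rests in part on that colon and was 0.92 without it.

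The chromosomal passenger complex corrects faulty attachments and starts cytokinesis. Incenp, its scaffold, had values of 8.68, 8.47, 8.92 and 8.24 in wildtype and 8.94, 8.95, 9.34 and 9.96 in knockout colons, and the groups touched without overlapping (difference 0.72, SE 0.246, limma adjusted p = 0.388). Birc5, survivin, had values of 9.61, 9.67, 9.92 and 9.33 in wildtype and 10.27, 9.88, 10.14 and 11.10 in knockout colons. Knockout 2 lay below wildtype 3, and the other knockout colons lay above all wildtype colons. The Birc5 difference was 0.71 (SE 0.255), and its other probes gave 0.75 and 0.73. Cdca8, borealin, differed by 0.51 (95% confidence interval -0.09 to 1.11).

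The spindle checkpoint was represented by Bub1b, Ttk and Mad2l1. Mad2l1, which inhibits Cdc20 until attachment is complete, had values of 9.59, 9.27, 9.76 and 9.61 in wildtype and 10.05, 9.77, 10.05 and 10.79 in knockout colons. The lowest knockout colon lay above the highest wildtype colon by only about 0.01, and the difference was 0.61 (SE 0.218). Bub1b, or BubR1, differed by 0.69 (SE 0.241) and Ttk, the kinase Mps1, by 0.79 (SE 0.333). The Ttk difference was 0.26 without background correction.

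**Figure D3:**
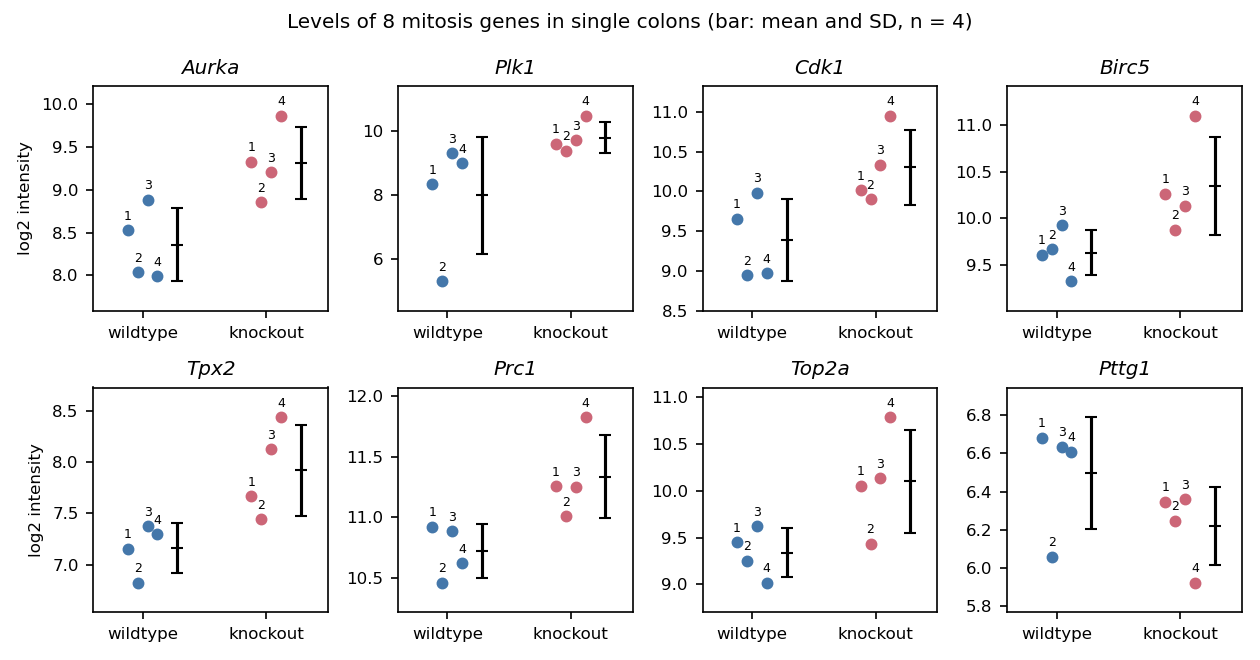
Log2 intensity of 8 mitosis genes in single colons, numbered 1 to 4 within each genotype, with the mean and SD (n = 4) beside the points; each panel has its own axis. Knockout 4 is the highest colon in the panels other than Pttg1, where it is the lowest, and Plk1 is far lower in wildtype 2 (5.30) than in the other colons.

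Among kinetochore and centromere genes all 5 tested members had a higher mean in the knockout. Spc25, a subunit of the Ndc80 complex that grips microtubules, had values of 8.62, 8.11, 8.77 and 8.06 in wildtype and 9.04, 8.71, 9.40 and 9.56 in knockout colons. Only knockout 2 lay within the wildtype range, and the difference was 0.79 (SE 0.231, limma adjusted p = 0.362), with 0.87 for its second probe. Cenph, of the inner kinetochore, differed by 0.88 (SE 0.276), and Cenpa, the histone H3 variant that marks centromeres, by 0.59 (SE 0.198). Ndc80 (0.52, interval -0.07 to 1.11) and Cenpk (0.39, interval -0.03 to 0.81) had intervals that include 0.

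The kinesins had the smallest median of the role groups, 0.55 over 4 genes. Kif23, the motor of the central spindle, differed by 0.66 (SE 0.301, interval -0.02 to 1.34), Kif4, a chromosome-bound motor, by 0.57 (SE 0.229) and Kif2c, a microtubule depolymerase, by 0.53 (SE 0.220). Kif11, the motor that pushes spindle poles apart, had values of 8.04, 7.32, 7.58 and 6.99 in wildtype and 7.91, 7.28, 7.72 and 8.01 in knockout colons. The Kif11 groups overlapped almost fully, and its interval of -0.30 to 0.80 includes the median of the members.

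Of the spindle and cytokinesis factors, Tpx2, which activates Aurka on the spindle, had values of 7.15, 6.82, 7.37 and 7.29 in wildtype and 7.67, 7.44, 8.13 and 8.44 in knockout colons. Prc1, which bundles microtubules of the central spindle, had values of 10.92, 10.46, 10.89 and 10.62 in wildtype and 11.26, 11.01, 11.25 and 11.83 in knockout colons. For both genes every knockout colon lay above every wildtype colon, with differences of 0.76 (SE 0.228, limma adjusted p = 0.369) and 0.62 (SE 0.191, adjusted p = 0.381). Nusap1, a microtubule-stabilising protein, differed by 0.47 (SE 0.165), with knockout 2 inside the wildtype range.

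The genes of anaphase and sister separation were the most mixed. Ube2c, the ubiquitin-conjugating enzyme of the anaphase-promoting complex, had values of 6.73, 5.65, 6.77 and 5.76 in wildtype and 6.93, 6.65, 7.64 and 7.52 in knockout colons, with a difference of 0.96 (SE 0.327) that was 0.39 without background correction. Wildtype 2 and 4 lay about a log2 unit below wildtype 1 and 3, and knockout 2 was the only knockout colon within the wildtype range. Cdca5, sororin, which protects cohesion, differed by 0.80 (SE 0.260), Espl1, separase, by 0.64 (SE 0.254) and Cdc20, the activator of the complex, by 0.53 (SE 0.226, with 0.45 to 0.74 for its other probes). Cdca3, a trigger of mitotic entry, differed by 0.26 (interval -0.12 to 0.65). Pttg1, securin, which restrains separase, had values of 6.68, 6.06, 6.63 and 6.61 in wildtype and 6.35, 6.25, 6.36 and 5.92 in knockout colons. The Pttg1 difference of -0.28 (interval -0.67 to 0.11, limma adjusted p = 0.556) was within the spread of the colons, with wildtype 2 as low as the knockout colons.

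Top2a, the topoisomerase that untangles chromosomes, stood for the proliferation markers. Its values were 9.45, 9.25, 9.62 and 9.02 in wildtype and 10.06, 9.44, 10.13 and 10.79 in knockout colons. Knockout 2 lay within the wildtype range and the other knockout colons above it, and the difference was 0.77 (SE 0.266, limma adjusted p = 0.392).

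**Figure D4:**
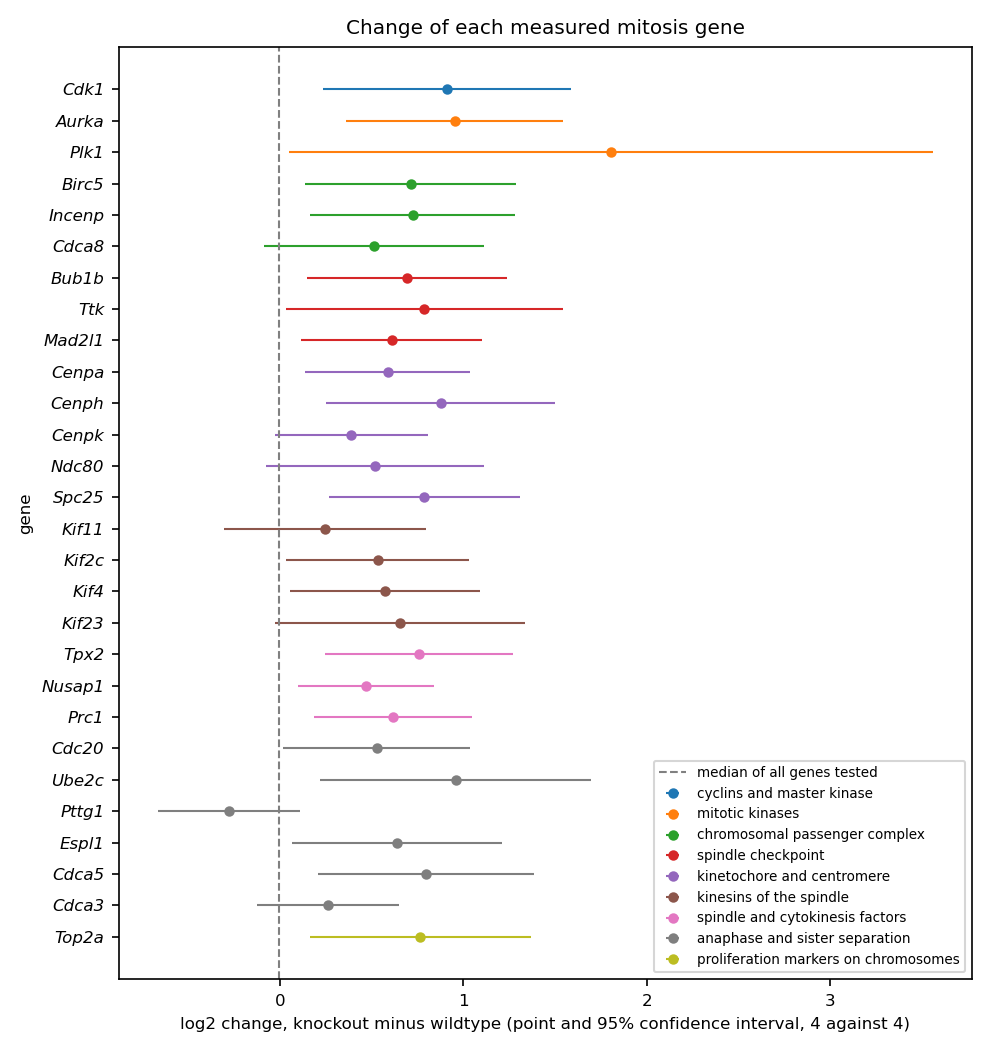
Log2 change of each tested mitosis gene (knockout minus wildtype, point and 95% confidence interval from the limma fit, 4 colons against 4), coloured by role; the dashed line is the median of all genes tested. The points of 27 genes lie to the right of the line, the interval of Plk1 is the widest, and the point of Pttg1 lies to the left.

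Other mitosis genes were listed by role and not by how they moved, but with earlier results of these data known. They were measured in the same colons, and in both lists knockout 4 had the highest and wildtype 2 the lowest mean score. Their direction is thus no independent evidence for that of the members. It was similar: 63 of 67 tested genes had a higher knockout mean, and their median was 0.49. At an unadjusted limma p under 0.05, 32 (47.8%) were higher and 0 lower, against 6.7% and 4.34% of all genes. In 16 (23.9%) every knockout value lay above every wildtype value, against 4.85% of all genes. After adjustment 0 passed the limma test. The smallest p values belonged to Cdc25b, a phosphatase that activates Cdk1 (0.72, SE 0.138, adjusted p = 0.191), and Dsn1, a kinetochore protein (0.78, SE 0.153, adjusted p = 0.198). Esco2, which acetylates cohesin (1.06, SE 0.236), Ncapg2, a condensin subunit (0.98, SE 0.226), and Kif18b, a kinesin (0.91, SE 0.247), followed, and in these 5 genes each knockout colon lay above each wildtype colon. The 39 tested genes of DNA replication and S phase entry had a median of 0.64, close in size to that of the mitosis genes. Of them, 31 (79.5%) were higher at an unadjusted limma p under 0.05, against 6.7% of all genes. In 22 (56.4%) every knockout value lay above every wildtype value, against 4.85% of all genes. Whether the 2 lists differ in overlap was not tested.

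Of the transcription regulators of the cell cycle, 15 of 17 had a higher knockout mean. Their median was 0.15, and 5 (29.4%) passed an unadjusted limma p under 0.05 in that direction, against 6.7% of all genes. Foxm1, the forkhead activator of mitotic genes, had values of 7.76, 7.91, 8.07 and 7.32 in wildtype and 8.56, 8.19, 8.65 and 9.09 in knockout colons. Its groups did not overlap (difference 0.86, SE 0.221, limma adjusted p = 0.333). Mybl2, which encodes B-MYB, differed by 0.86 (SE 0.265) and E2f1, an activator of S phase genes, by 0.55 (SE 0.182). The 12 tested subunits of the anaphase-promoting complex, which is present through much of the cell cycle, had a median of -0.031, with knockout means above wildtype in 6 and below in 6. At an unadjusted limma p under 0.05, 0 were higher and 1 lower, against 6.7% and 4.34% of all genes. The lower gene was Cdc23 (-0.25), with every knockout colon below every wildtype colon, which held for 2.83% of all genes. Cell cycle inhibitors and G1 cyclins had a median of -0.12 over 14 genes.

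**Figure D5:**
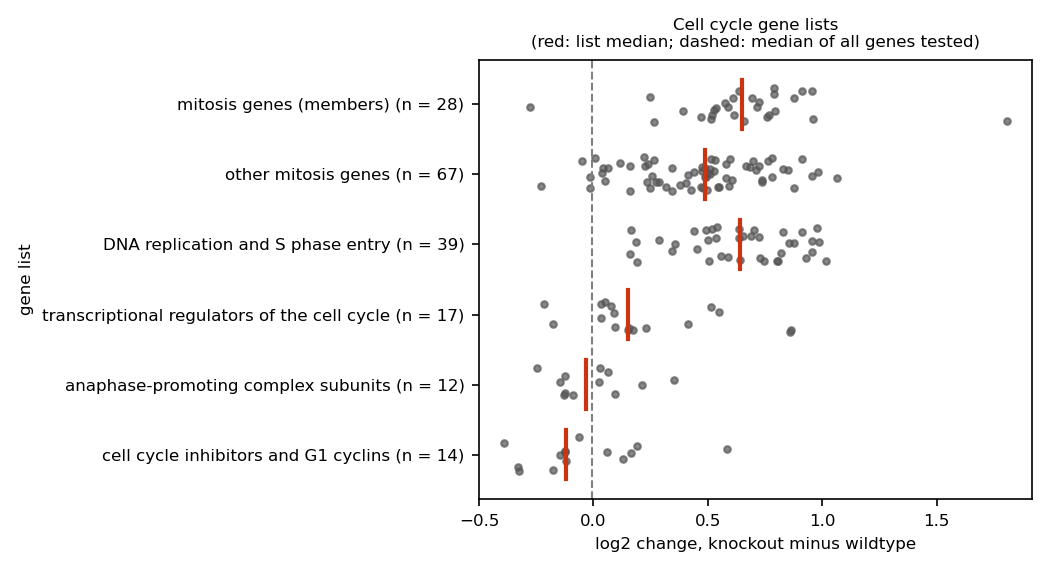
Log2 change (knockout minus wildtype) of each tested gene of 6 cell cycle lists, 1 point per gene, with list medians in red and the median of all genes as a dashed line. The medians of the lists of mitosis and of DNA replication lie to the right of the line (0.65, 0.49 and 0.64). Of the single genes, 1 of 28 members and 4 of 67 other mitosis genes are below 0. The list of the anaphase-promoting complex lies across the line (median -0.031).

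Markers of other cell types were measured in the same colons, and their part in the differences of the mitosis genes was not tested beyond the fits given at the end. Summed intensities above background of the 11 colon epithelium markers were 160373 to 173375 in wildtype and 168402 to 172048 in knockout colons, with 6 of 11 higher and a median log2 change of 0.0023. The 28 mitosis genes summed to 12893 to 18753 in wildtype and 17849 to 33924 in knockout colons. For crypt base stem cell markers the median was -0.049, 2 of 7 were higher, and the sums were 3221 to 3532 and 2990 to 3832 (Znrf3 and Olfm4 not well above background). The 9 smooth muscle markers were all lower, with a median of -0.49 and sums of 91365 to 115727 in wildtype and 65556 to 104603 in knockout colons. Fibroblast markers (median -0.12, 2 of 9 higher, sums of 34864 to 37900 and 26408 to 41889) and endothelial markers (median -0.011, 3 of 6 higher, sums of 2589 to 3499 and 2406 to 3135, with Cdh5 and Kdr not well above background) overlapped between the genotypes.

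Immune cells can divide in the colon wall, and their markers had higher means in the knockout. T and NK cell markers were higher in 6 of 6 tested genes (median 0.44, sums of 431 to 1072 in wildtype and 685 to 1149 in knockout colons), while Cd4, Cd8a, Gzma and Gzmb were not well above background. B cell and germinal centre markers were higher in 6 of 7 (median 0.16, sums of 1257 to 1909 and 1432 to 2086), with Ms4a1, Pax5 and Rgs13 not well above background. Macrophage and monocyte markers were higher in 7 of 7 (median 0.35, sums of 9957 to 13278 and 11387 to 18043, with Itgam not well above background). Skeletal muscle markers summed to 987 to 11793 in wildtype and 1510 to 29633 in knockout colons (9 of 10 higher, median 0.46, Myh4 and Pvalb not well above background). Skin and stratified epithelium markers summed to 1846 to 93801 and 2126 to 34562 (0 of 11 higher, median -0.75, Dsg3, Dsc3 and Ivl not well above background). When scores of muscle and skin markers were added to the fit, the median change of the mitosis genes was 0.57, and 10 of 28 had an unadjusted p under 0.05 (4.93% of all genes in that fit). Adding the sex pattern gave a median of 0.56, and 6 genes had an unadjusted p under 0.05 (3.98% of all genes). Adding the position on the beadchip gave a median of 0.36, with 25 of 28 estimates above 0 and 0 genes at that p (1.86% of all genes). In that fit the changes of 15 genes were over 1.5 times smaller, and those of Mad2l1 (0.0015), Plk1 (0.024), Bub1b (0.023), Cdc20 (0.037) and Tpx2 (-0.034) were under 0.05 in size. Every wildtype array lay before every knockout array on the beadchip, so effects of position and genotype cannot be told apart.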

How the data were processed

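Per the labels, RNA of each whole colon went through Illumina's TotalPrep amplification, with Cy3 as the label. The deposited raw table gives, per the file headers, an average intensity per probe and a detection p-value. The submitters' processing notes name GenomeStudio. The authors' processed table holds intensity values that match a quantile normalization of the raw ones to within 0.028 on the log2 scale. Array number, not read depth, limits precision.

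Probes were named from the platform annotation (23978 of 25697 with 1 symbol), and 23962 Entrez IDs matched GRCm38.p6 with 0 symbols changed. The neqc function (limma 3.58.1, R 4.3.3) subtracted background by normexp, using detection p-values to find negative controls, added an offset of 16 and quantile normalized to log2 intensity. Probes detected (p under 0.05) on 4 or more arrays, 14754 in all, were tested with lmFit and eBayes, two-sided, with genotype as the only term and Benjamini-Hochberg adjustment over all probes tested. A gene was represented by its brightest tested probe. The fit was tested on simulated data.

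The members, lists and tests were chosen with earlier results of these data known. Named genes are all members, Ihh, up to 8 genes of each further cell cycle list and up to 3 of each marker list by smallest p. Lists were described by counts and medians, with no test of the list. Alternatives tried were the authors' table, uncorrected background, cyclic loess, median scaling, no or a stricter filter on dim probes, a replicate block, terms for array position, sex pattern or muscle and skin scores, array weights, the mean of a gene's probes, and leaving out each colon. Whether same-numbered colons deviate together was checked, and the numbers were not taken to pair them.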

Additional observations from a re-analysis of the deposited data

Results flagged for a closer look

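Among the 28 tested mitosis genes and their mean score, each in both genotypes (58 groups of 4), a single colon stood apart. Pttg1 in wildtype 2 had a log2 intensity of 6.06, where the other wildtype colons had 6.61 to 6.68, a gap of 0.882 of the group's range, above Dixon's 95% critical value for 4 samples. Chance flags about 1 in 20 such groups. Without wildtype 2 the Pttg1 change was -0.42.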

How the results depend on the processing

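The median change of the mitosis genes stayed above 0 under all alternatives run, from 0.36 (array position as a term) to 0.79 (without knockout 2), and 0 members passed limma's adjusted threshold under any of them. With array position as a term Cdca3 (-0.19) and Tpx2 (-0.034) turned, and Mad2l1, Plk1, Bub1b and Cdc20 were under 0.05, while the other 22 genes kept their sign under the alternatives run. The number with an unadjusted p under 0.05 was 21, and 0 with position, 6 with sex pattern and 10 with muscle and skin scores as terms. It was 12 to 24 when each colon was left out in turn, lowest without wildtype 4, against 4.65% to 7.41% of all genes in those settings. Position is fully separated by genotype, and the sex pattern is unevenly split. The number with no overlap was 5, and 0 with median scaling (2.86% of all genes). It was 5 to 21 when each colon was left out. Without wildtype 1 it was 8 (6.57% of all genes in that setting), without wildtype 3 it was 14 (8.49%) and without knockout 2 it was 21 (8.90%). The median of the other mitosis genes was 0.49, and 0.27 with uncorrected background or from the authors' values, and 0.18 with position. Over all genes limma called 2. It called 0 with uncorrected background, from the authors' values, with the strict detection filter, with the replicate block, and with position, sex pattern or the scores as terms. Averaging probes per gene gave 1, and 0 to 10 when each colon was left out, highest without knockout 1. With the replicate block 20 members had an unadjusted p under 0.05 (5.5% of all genes). Deviations of same-numbered colons correlated at -0.18 to 0.21, and 3 of 8 colons correlated best with their own number, so the numbers were not taken as pairs. With no filter on dim probes 32 of 35 genes had a higher mean in the knockout (median 0.59).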

Other observations

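Among regulators that act before mitosis the directions were mixed. Cdkn1c, an inhibitor of cyclin-dependent kinases, had log2 intensities of 9.78, 9.92, 9.75 and 9.93 in wildtype and 9.63, 9.23, 9.46 and 9.50 in knockout colons, with no overlap and a limma change of -0.39 (SE 0.121, adjusted p = 0.381). Ccng1, a p53 target, had a change of 0.58 (SE 0.187, adjusted p = 0.387), with no overlap either. These are the lowest and the highest change among the 14 tested inhibitors and G1 cyclins. At an unadjusted limma p under 0.05, 1 of the 14 was higher (7.14%) and 1 lower, against 6.7% and 4.34% of all genes. Without overlap 1 lay above (7.14%) and 1 below, against 4.85% and 2.83%, so both counts are near those shares. Cdkn1a and Ccnd1 differed by -0.18 and 0.19. Of the crypt base markers, Lgr5, a stem cell receptor, was at -0.75 (SE 0.247) and Cd44, also made by other cells, at 0.30 (SE 0.118), and neither passed the threshold.

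Knockout 2 had the lowest Ihh value of the knockout colons (9.03) and also the lowest mitosis gene values among them in 26 of 28 genes. Knockout 4, highest in 22 of 28, had an Ihh value of 9.50. The other knockout colons did not follow this order. Knockout 1 had the highest Ihh value of the knockout colons, and knockout 3 a lower one. The median difference of the mitosis genes from the wildtype mean was nevertheless smaller in knockout 1 (0.52) than in knockout 3 (0.74). With 4 colons this is a description only.

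Of the 26 tested members with a promoter window, the 20 with a CHR match had a median log2 change of 0.65 (0.25 to 1.81), and the 6 without one had 0.54 (-0.28 to 0.88). The value of -0.28 is that of Pttg1, whose window does not hold the outermost annotated 5′ end of the gene. The same holds for Aurka, Cdca3 and Kif2c among the genes with a match. The ranges of the 2 groups overlap and the difference between their medians was not tested.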
